A study of Mus musculus with 35 samples.

Results

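The 10 genes described here carry the interleukin 17 (IL-17) signal from the cell surface to messenger RNA and then restrain or prolong it. They were the rows whose gene symbol was Il17ra, Il17rc, Traf3ip2, Traf6, Nfkbiz, Cebpb, Cebpd, Zc3h12a, Tnfaip3 or Arid5a, and each symbol matched 1 of the 55487 genes in each of the 4 deposited tables. All 10 members passed the filter on low counts in every table. The question put to them was which level of the pathway moved when IAMP was knocked down: receptor, adaptor, transcription factor or brake.

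IL-17A is a cytokine made mainly by lymphocytes that acts on stromal cells such as fibroblasts through a receptor built from Il17ra and Il17rc. The adaptor Act1, encoded by Traf3ip2, binds the receptor and recruits the ubiquitin ligase Traf6, which passes the signal to NF-κB and to mitogen-activated kinases. The nuclear co-activator IκBζ (Nfkbiz) and the factors C/EBPβ (Cebpb) and C/EBPδ (Cebpd) then raise chemokine, cytokine and protease transcripts. The signal is limited by Regnase-1 (Zc3h12a), an RNase that destroys inflammatory mRNAs, and by the ubiquitin-editing enzyme A20 (Tnfaip3), while the RNA-binding protein encoded by Arid5a stabilises some of the mRNAs that Regnase-1 degrades. In the heart, fibroblasts are among the cells that answer IL-17.

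IAMP is a micropeptide encoded by the mouse gene 4930523C07Rik. Primary cardiac fibroblasts (CFs), the adherent cells of dissociated adult mouse hearts, received a scrambled control siRNA (Scrambled) or 1 of 2 IAMP siRNAs, IAMP-siR-1 or IAMP-siR-2, and were left untreated or given IL-17 or TGF-β, with 3 libraries in each of the 9 groups. No strain is given for the CFs. The labels give 24 h of siRNA followed by 24 h of IL-17. The times for untreated CFs, and the times and dose for TGF-β, were not given separately. Hearts came from C57BL/6 mice, 4 heterozygous for an IAMP frameshift allele (Het) and 4 homozygous for it (KO), and the study text puts their age at 8 weeks, so the heart controls also carried 1 mutant allele. The labels do not say that libraries of a group came from separate cultures, so p-values measure the spread between these libraries, which may be technical.

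Totals ran from 104139670 to 119232309 estimated counts in the CF libraries and from 23497027 to 23857313 counts in the hearts. In the CFs 1 read pair was taken to stand for about 6 estimated counts, a conversion that the sources do not state. 4930523C07Rik fell with both siRNAs in every CF table, from 23.5 ± 2.0 CPM (counts scaled to the library size adjusted by TMM factors) in untreated Scrambled CFs to 3.01 ± 0.49 and 1.84 ± 0.064 CPM (SD, n = 3). Its level in the hearts, 17.0 ± 1.3 CPM with the Het and 16.1 ± 0.98 CPM with the KO genotype (SD, n = 4), did not pass the test, so the transcript checks the siRNAs but not the frameshift. The 8 fibroblast markers summed to 15683 to 23400 CPM in the CFs, lower in untreated and IL-17 Scrambled (15683 to 16969 CPM) than with the siRNAs (20310 to 22488 CPM), and the 4 T cell and 4 neutrophil markers each stayed under 1 CPM there. The 6 macrophage markers summed to 55.0 to 60.3 CPM in untreated Scrambled and IAMP-siR-1 CFs, 73.4 to 76.6 CPM with IAMP-siR-2, and 125 to 164 CPM in the TGF-β table. Lyz2 was the largest of them, at 35.3 to 114 CPM over the CF libraries. Csf1r and Cd68 reached at most 22.3 and 22.0 CPM there, and Ptprc at most 1.23 CPM. The 5 cardiomyocyte markers, of which Tnnt2 alone exceeded 1 CPM in any CF library, summed to 90.1 to 97.9 CPM in untreated Scrambled, 42.1 to 47.01 CPM with IAMP-siR-1 and 27.7 to 32.7 CPM with IAMP-siR-2. In IL-17 CFs that sum was 69.6 to 76.5, 31.97 to 35.6 and 22.8 to 25.7 CPM in the same order, and the sum of the 4 mural markers was also lower with both siRNAs in untreated (44.4 to 55.5 against 57.02 to 65.97 CPM) and IL-17 CFs (63.8 to 76.2 against 84.4 to 88.8 CPM). Most of the mural sum was Cspg4, at 22.3 to 84.6 CPM over the CF libraries. Rgs5, Myh11 and Kcnj8 did not exceed 9.03, 4.56 and 0.38 CPM there. The part of these marker differences in the siRNA results was not tested. Il17a was at 0 in all 35 libraries, and Il17f did not exceed 7 estimated counts in any CF library. Another ligand gene of the family, Il17d, was above 0 in all 27 CF libraries, at 0.99 to 4.84 CPM, and in all 8 hearts.

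In GENCODE vM21 on GRCm38, Il17ra (ENSMUSG00000002897) spans chromosome 6 from 120463247 to 120487559 and Il17rc (ENSMUSG00000030281) the same chromosome from 113471427 to 113483140. Traf3ip2 (ENSMUSG00000019842) lies on chromosome 10 from 39612934 to 39655307 and Traf6 (ENSMUSG00000027164) on chromosome 2 from 101678429 to 101701669. Nfkbiz (ENSMUSG00000035356) and Cebpd (ENSMUSG00000071637) lie on chromosome 16, from 55811375 to 55838899 and from 15887286 to 15891031, and Cebpb (ENSMUSG00000056501) on chromosome 2 from 167688915 to 167690418 as a single-transcript gene of 1504 bases. Zc3h12a (ENSMUSG00000042677) lies on chromosome 4 from 125118423 to 125127840, Tnfaip3 (ENSMUSG00000019850) on chromosome 10 from 19000910 to 19015657, and Arid5a (ENSMUSG00000037447) on chromosome 1 from 36307733 to 36324029. The strand setting of the counting is not given in the sources used here, and 3 members share exon bases with a gene on the opposite strand: 312 bases of Cebpb (20.7%) with Tmem189, 562 of Cebpd (15%) with Spidr and 293 of Traf3ip2 (7.95%) with E130307A14Rik. Reads from those bases cannot be assigned to 1 gene without strand. In untreated CFs Tmem189 had log2 fold changes of -0.74 ± 0.037 with IAMP-siR-1 and 0.22 ± 0.037 with IAMP-siR-2 (SE). Spidr had 0.13 ± 0.068 and -0.61 ± 0.069, and Cebpb and Cebpd rose with both siRNAs. With IL-17 in Scrambled CFs, Spidr had 0.56 ± 0.073, where Cebpd rose, and Tmem189 had -0.16 ± 0.042, where Cebpb rose. The part of the shared bases in the results of these members was not tested.

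Promoter windows of 250 bases before to 50 bases after the start site (RefSeq, GRCm38.p6) were on hand for 6 of the 10 members, in 7 windows: Il17rc, Traf6, Cebpb, Zc3h12a, Tnfaip3 and Arid5a. The 250 bases before the start are printed for the 3 of these that rose with both siRNAs in untreated CFs, Traf6, Cebpb and Zc3h12a, and for Tnfaip3, added after its matches were seen because its first window was the only 1 with an NF-κB match. Capitals mark every match, on either strand, to the 10-base NF-κB consensus, the C/EBP half-palindrome T-T-G-C-N-N-A-A, the AP-1 site TGANTCA or the hypoxia core ACGTG or GCGTG.
Traf6, chr2:101678170-101678419, plus strand: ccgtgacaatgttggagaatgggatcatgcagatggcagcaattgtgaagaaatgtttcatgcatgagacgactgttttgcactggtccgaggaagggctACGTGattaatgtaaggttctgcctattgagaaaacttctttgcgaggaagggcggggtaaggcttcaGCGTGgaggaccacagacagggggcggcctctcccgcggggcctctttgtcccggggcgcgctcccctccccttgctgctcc
Cebpb, chr2:167688665-167688914, plus strand: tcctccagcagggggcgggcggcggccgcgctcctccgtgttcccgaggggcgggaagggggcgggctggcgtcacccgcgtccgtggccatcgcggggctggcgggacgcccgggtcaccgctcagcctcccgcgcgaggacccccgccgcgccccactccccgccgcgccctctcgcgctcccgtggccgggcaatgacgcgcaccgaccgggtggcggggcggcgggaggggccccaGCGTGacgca
Zc3h12a, chr4:125127882-125128131, minus strand: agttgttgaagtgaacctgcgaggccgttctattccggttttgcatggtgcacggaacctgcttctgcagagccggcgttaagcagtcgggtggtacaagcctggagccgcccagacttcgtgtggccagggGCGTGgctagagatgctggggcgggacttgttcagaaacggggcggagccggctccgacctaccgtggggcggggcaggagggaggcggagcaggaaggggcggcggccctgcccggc
Tnfaip3, chr10:19015411-19015660, minus strand: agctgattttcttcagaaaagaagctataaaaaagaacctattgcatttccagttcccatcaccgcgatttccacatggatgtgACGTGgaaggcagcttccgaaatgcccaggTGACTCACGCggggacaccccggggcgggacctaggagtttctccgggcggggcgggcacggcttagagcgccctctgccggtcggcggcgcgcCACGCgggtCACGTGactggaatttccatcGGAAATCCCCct
Traf6 held 2 hypoxia cores, at bases -150 to -146 and -82 to -78 from the start, and Cebpb and Zc3h12a 1 each, at -10 to -6 and -118 to -114. In the first Tnfaip3 window the NF-κB match lay at -12 to -3 and the AP-1 match at -136 to -130, beside 5 hypoxia cores, 1 of which overlapped the AP-1 match. No window held a C/EBP match, and the Il17rc and Arid5a windows held none of the 4 motifs. Of all 32851 windows, 5.8% held the NF-κB consensus, 10.8% the C/EBP, 7.81% the AP-1 and 43.8% a hypoxia core.

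In untreated Scrambled CFs the transcription factors stood highest in mean CPM per kilobase of annotated exon, with Cebpb at 25.4 ± 1.5, Cebpd at 12.1 ± 0.48 and Nfkbiz at 10.9 ± 0.26 (SD, n = 3). The receptors followed, with Il17rc at 9.24 ± 0.73 and Il17ra at 6.38 ± 0.33 CPM per kilobase, then Traf3ip2 at 5.93 ± 0.32 and Zc3h12a at 3.64 ± 0.31. Tnfaip3 at 2.78 ± 0.22 and Traf6 at 2.78 ± 0.13 CPM per kilobase could not be told apart beyond their spread, nor could Il17ra and Traf3ip2. Arid5a was last at 1.15 ± 0.06, over 12540 exon bases merged from 15 transcripts. With IL-17 the same scale put Zc3h12a at 52.9 ± 2 CPM per kilobase, among Nfkbiz at 65.6 ± 1.4, Cebpb at 59.4 ± 3.5 and Cebpd at 50.2 ± 3.2, while the highest of the rest was Il17rc at 9.21 ± 0.59.

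**Figure D1:**
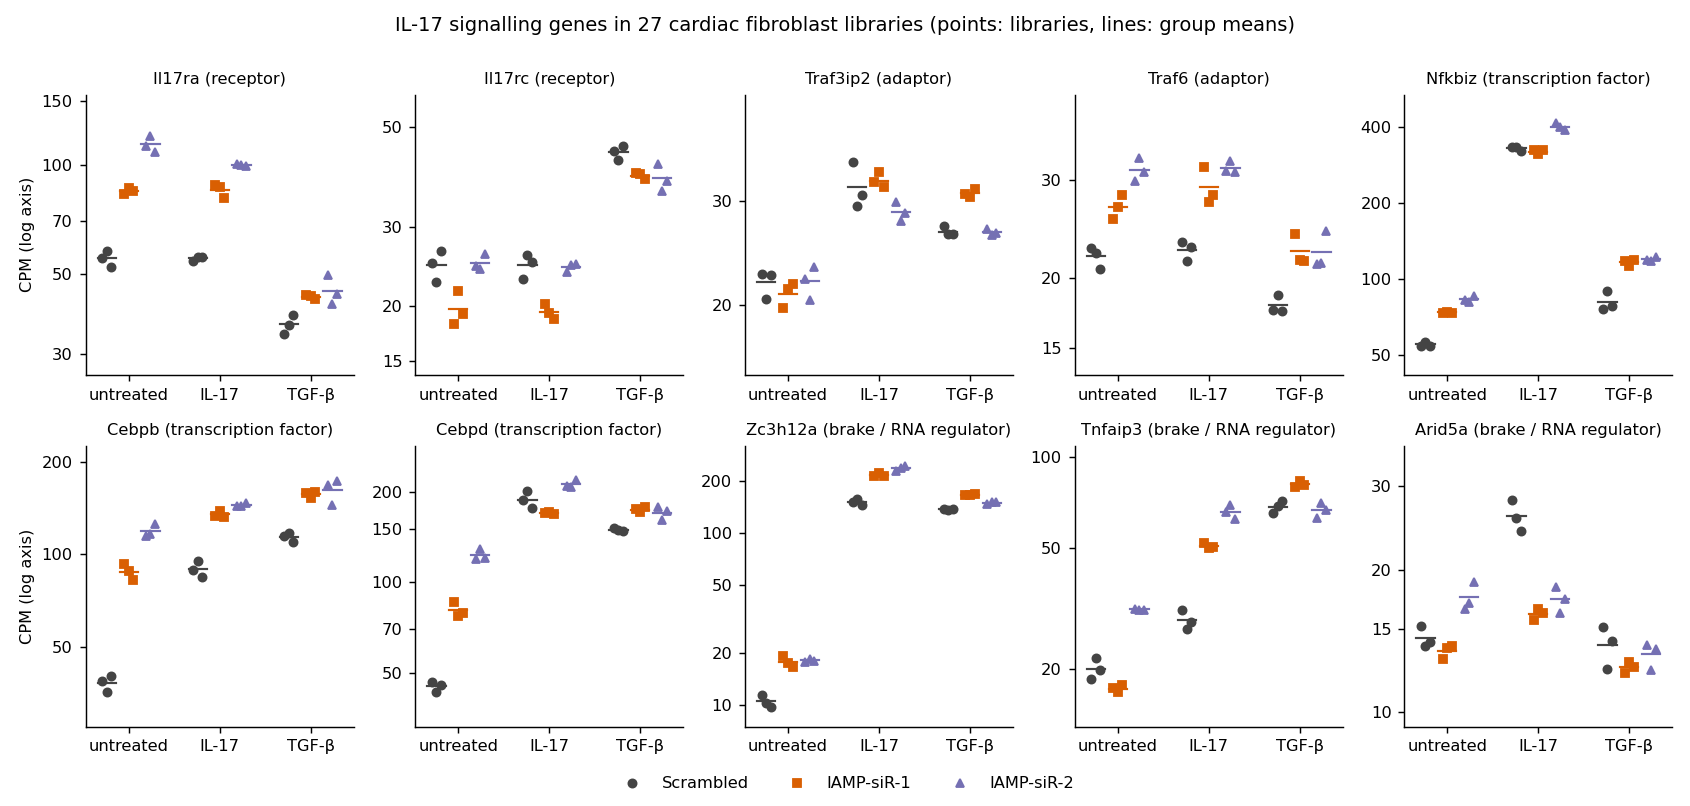
Level of each member in CPM on a log axis, 1 panel per gene, in the 27 CF libraries under no stimulus, IL-17 or TGF-β, with Scrambled as circles, IAMP-siR-1 as squares and IAMP-siR-2 as triangles, and lines at group means. Il17ra lay higher with both siRNAs under each condition, Zc3h12a rose from 9.69 to 11.5 CPM in untreated Scrambled libraries to 136 CPM or more with either stimulus, and Arid5a rose with IL-17 in the Scrambled libraries, to 24.2 to 28.1 CPM.

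Which members answered IL-17 was read in the Scrambled CFs. Of the 10 members 7 rose and none fell, against 12.2% of 22359 genes called in either direction, and 4 rose past a log2 fold change of 1, against 1.46% of genes past it. They were the 3 transcription factors and Zc3h12a. Untreated and IL-17 libraries were deposited in separate tables, so the stimulus and the table cannot be told apart in this comparison.

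Zc3h12a, the RNase gene, had 11.5, 10.3 and 9.69 CPM in the untreated and 152, 158 and 146 CPM in the IL-17 Scrambled libraries, a log2 fold change of 3.86 ± 0.05 (SE). The adjusted p, here and throughout the Benjamini-Hochberg value over all genes tested from the quasi-likelihood test of edgeR, was 1.59e-32. Nfkbiz had 54.3, 56.4 and 53.9 CPM without and 332, 334 and 321 CPM with IL-17, a log2 fold change of 2.59 ± 0.042 (adjusted p = 9.06e-30). Both genes were far above their untreated range in all 3 IL-17 libraries. Cebpd went from 46.7, 43.2 and 45.8 CPM to 188, 200.4 and 176 CPM, a log2 fold change of 2.06 ± 0.045, and Cebpb from 38.7, 35.7 and 40.1 CPM to 88.7, 94.9 and 84.5 CPM, a log2 fold change of 1.23 ± 0.056. Neither pair of groups overlapped. Smaller rises were seen for Arid5a (log2 fold change 0.85 ± 0.073), Traf3ip2 (0.53 ± 0.058) and Tnfaip3 (0.53 ± 0.056), each with an adjusted p of at most 1.95e-08. The receptor genes and Traf6 did not pass the test, with log2 fold changes of 0.001 ± 0.051 for Il17ra, -0.0038 ± 0.064 for Il17rc and 0.04 ± 0.063 for Traf6, whose 95% interval ran from -0.09 to 0.16.

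**Figure D2:**
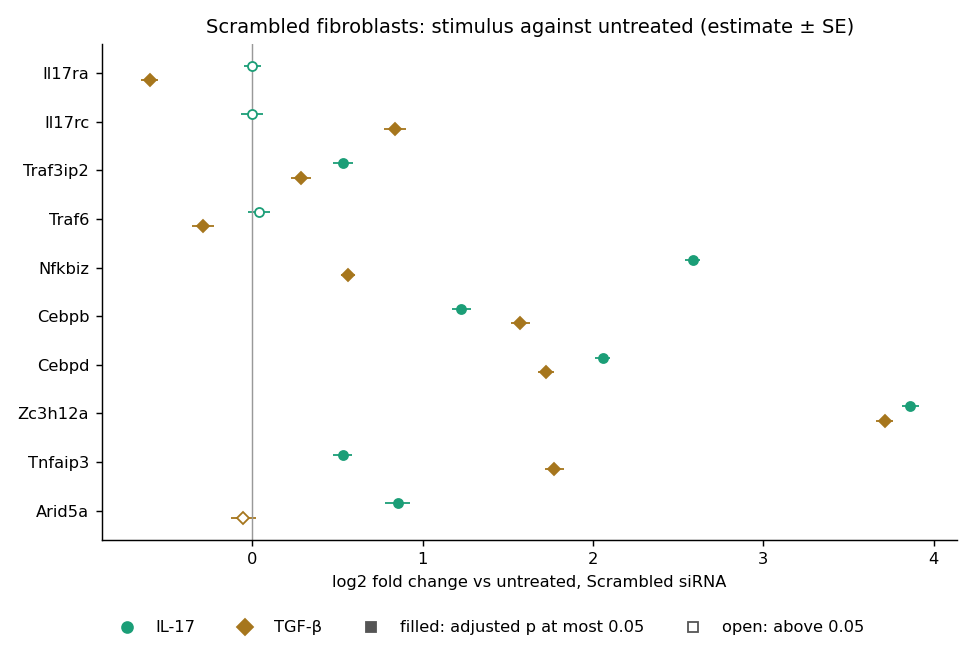
Log2 fold change of each member with IL-17 (circles) and TGF-β (diamonds) against untreated CFs, all with Scrambled siRNA, with bars of 1 SE and filled symbols for an adjusted p of at most 0.05. IL-17 raised Nfkbiz by 2.59 and TGF-β by 0.56, while Zc3h12a stood highest with both, at 3.86 and 3.71.

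In untreated CFs, IAMP knockdown raised a receptor gene, Il17ra, the adaptor gene Traf6, all 3 transcription factors and the brake gene Zc3h12a with both siRNAs. IAMP-siR-1 changed 8 of 10 members, 6 higher and 2 lower, against 39.9% of 19669 genes, and IAMP-siR-2 changed 8, all higher, against 49.3%. Past a log2 fold change of 1 stood 1 member with IAMP-siR-1 and 3 with IAMP-siR-2, against 4.76% and 10.7% of genes. The median member moved by 0.35 and 0.60 on the log2 scale, with the median gene at -0.016 and -0.02, and both comparisons share the 3 Scrambled libraries. Of all genes tested, 12.1% were called higher with both siRNAs, as were 6 of the 10 members.

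Il17ra, the shared receptor subunit, had 55.5, 57.97 and 52.3 CPM in the Scrambled libraries, 83.00, 86.3 and 84.9 CPM with IAMP-siR-1 and 113, 120.5 and 109 CPM with IAMP-siR-2. The 3 groups did not overlap and the siRNAs differed from each other. Its log2 fold changes were 0.61 ± 0.043 (adjusted p = 6.15e-09) and 1.03 ± 0.043 (adjusted p = 3.81e-12), and 0.41 ± 0.042 between the siRNAs (adjusted p = 3.85e-07). Il17rc, its partner, had 24.9, 22.6 and 26.5 CPM in Scrambled, 18.2, 21.6 and 19.1 CPM with IAMP-siR-1 and 24.5, 24.1 and 26.1 CPM with IAMP-siR-2. Every IAMP-siR-1 library lay below every Scrambled library, and the IAMP-siR-2 libraries fell inside the Scrambled range. Il17rc accordingly fell with IAMP-siR-1 (-0.34 ± 0.073, adjusted p = 0.00135) and not with IAMP-siR-2 (-0.01 ± 0.073, 95% interval -0.15 to 0.14). In a bulk library, fewer cells of a type and less RNA per cell cannot be told apart.

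Among the adaptors, Traf3ip2 had 22.6, 20.5 and 22.5 CPM in Scrambled, 19.8, 21.3 and 21.7 CPM with IAMP-siR-1 and 22.2, 20.5 and 23.3 CPM with IAMP-siR-2. The groups overlapped, with intervals of -0.20 to 0.06 and -0.14 to 0.11 for the log2 fold changes. Traf6 had 22.7, 22.2 and 20.8 CPM in Scrambled, 25.5, 26.8 and 28.2 CPM with IAMP-siR-1 and 29.9, 32.7 and 31.00 CPM with IAMP-siR-2. All 6 siRNA libraries lay above the Scrambled range. It rose by 0.29 ± 0.057 (adjusted p = 0.000552) and 0.49 ± 0.056 (adjusted p = 1.23e-06) on the log2 scale.

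Cebpb and Cebpd moved most with both siRNAs. Cebpb had 38.7, 35.7 and 40.1 CPM in Scrambled, 92.6, 87.8 and 82.5 CPM with IAMP-siR-1 and 114, 117 and 125 CPM with IAMP-siR-2, log2 fold changes of 1.19 ± 0.053 and 1.62 ± 0.053. Cebpd had 46.7, 43.2 and 45.8 CPM in Scrambled, 86.3, 77.1 and 79.1 CPM with IAMP-siR-1 and 119, 129 and 120.3 CPM with IAMP-siR-2, log2 fold changes of 0.83 ± 0.046 and 1.42 ± 0.046. For both genes the groups stood in the same order without overlap, Scrambled lowest and IAMP-siR-2 highest, and all 4 adjusted p were at most 3.08e-10. Without stimulus, the IAMP-siR-2 libraries reached Cebpb levels above the 84.5 to 94.9 CPM of the IL-17 Scrambled libraries. The IAMP-siR-1 libraries, at 82.5 to 92.6 CPM, did not exceed that range, and stimulus and table cannot be told apart here. Nfkbiz, the member of the 3 that answered IL-17 most, moved least with the siRNAs: 54.3, 56.4 and 53.9 CPM in Scrambled, 73.3, 73.8 and 73.5 CPM with IAMP-siR-1 and 82.2, 80.7 and 85.5 CPM with IAMP-siR-2. Its log2 fold changes were 0.42 ± 0.037 (adjusted p = 1.26e-07) and 0.57 ± 0.037 (adjusted p = 1.07e-09), and the IL-17 Scrambled libraries stayed far higher, at 321 to 334 CPM.

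The brake genes Zc3h12a and Tnfaip3 and the mRNA-stabilising Arid5a each had a pattern of their own. Zc3h12a had 11.5, 10.3 and 9.69 CPM in Scrambled, 19.2, 17.5 and 16.7 CPM with IAMP-siR-1 and 17.7, 18.5 and 18.1 CPM with IAMP-siR-2, and rose by 0.76 ± 0.075 and 0.77 ± 0.075 on the log2 scale (adjusted p = 3.65e-07 and 1.59e-07). The siRNA groups overlapped each other, with an interval of -0.13 to 0.16 for their difference. Tnfaip3, encoding A20, had 18.6, 21.8 and 19.9 CPM in Scrambled, 17.3, 16.8 and 17.7 CPM with IAMP-siR-1 and 31.7, 31.4 and 31.4 CPM with IAMP-siR-2. It fell with IAMP-siR-1 (-0.22 ± 0.06, adjusted p = 0.00676) and rose with IAMP-siR-2 (0.63 ± 0.06, adjusted p = 1.34e-07), the largest gap between the siRNAs among the members at 0.85 ± 0.06. Arid5a had 15.2, 13.8 and 14.1 CPM in Scrambled, 12.99, 13.7 and 13.8 CPM with IAMP-siR-1 and 16.6, 17.1 and 18.9 CPM with IAMP-siR-2. It rose with IAMP-siR-2 (0.26 ± 0.07, adjusted p = 0.0047), the log2 fold change with IAMP-siR-1 being -0.10 ± 0.071.

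Compared directly, IAMP-siR-2 gave higher levels than IAMP-siR-1 for 8 members and lower for none in untreated CFs, against 45.5% of genes called in either direction. Traf3ip2 and Zc3h12a were the members that did not pass this test. IAMP itself also differed, with a log2 fold change of -0.72 ± 0.12 for IAMP-siR-2 against IAMP-siR-1, and the 6 macrophage markers summed to 73.4 to 76.6 against 56.9 to 60.3 CPM. The part of either in these differences was not tested.

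**Figure D3:**
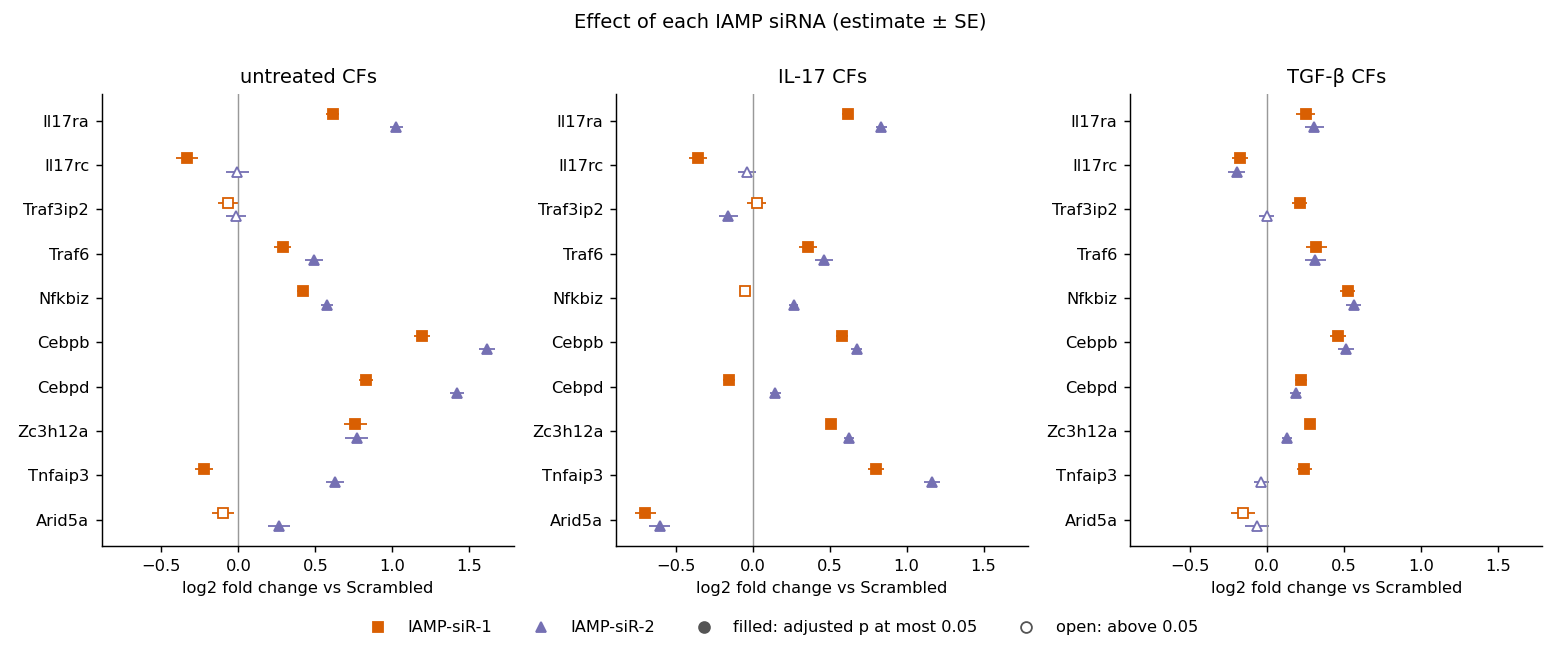
Log2 fold change of each member with IAMP-siR-1 (squares) and IAMP-siR-2 (triangles) against Scrambled in untreated, IL-17 and TGF-β CFs, with bars of 1 SE and filled symbols for an adjusted p of at most 0.05. Il17ra, Traf6, Cebpb and Zc3h12a lie right of 0 with both siRNAs in all 3 panels, Cebpb moves from 1.62 with IAMP-siR-2 in untreated to 0.67 in IL-17 CFs, and Arid5a lies left of 0 in IL-17 CFs at -0.70 and -0.60.

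Under IL-17, Il17ra, Traf6, Cebpb, Zc3h12a and Tnfaip3 rose with both siRNAs and Arid5a fell with both. IAMP-siR-1 changed 8 members, 5 higher and 3 lower, against 42.3% of 19906 genes, and IAMP-siR-2 changed 9, 7 higher and 2 lower, against 50.6%. Past a change of 1.5-fold, the threshold the study used for IL-17 CFs, stood 3 and 5 members, against 13.5% and 21.7% of genes. The median member moved by 0.19 and 0.37 on the log2 scale, the median gene by -0.0026 and -0.017. Of all genes, 12.9% were called higher with both siRNAs, as were 5 of the 10 members.

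Il17ra had 54.4, 55.8 and 55.7 CPM in Scrambled, 88.3, 86.95 and 81.2 CPM with IAMP-siR-1 and 101, 100.1 and 99.3 CPM with IAMP-siR-2, log2 fold changes of 0.62 ± 0.036 and 0.84 ± 0.036 without overlap. Il17rc again fell with IAMP-siR-1 (-0.36 ± 0.059, adjusted p = 9.1e-05) and had -0.03 ± 0.059 with IAMP-siR-2. Traf6 rose by 0.36 ± 0.058 and 0.47 ± 0.057, from 21.5 to 23.2 CPM to 27.4 to 31.6 and 30.96 to 32.4 CPM. Traf3ip2 had a log2 fold change of 0.03 ± 0.061 with IAMP-siR-1 and fell with IAMP-siR-2 (-0.16 ± 0.061, adjusted p = 0.0408). Its libraries overlapped, at 34.9, 29.4 and 30.7 CPM in Scrambled and 29.95, 27.7 and 28.7 CPM with IAMP-siR-2, and the call ended without Scrambled replicate 1 (adjusted p = 0.239), IAMP-siR-2 replicate 2 (0.136) or IAMP-siR-2 replicate 3 (0.0764). It also ended with DESeq2 (0.0621), with the compared groups alone (0.0512) and with no filter on low counts (0.0548).

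Cebpb had 88.7, 94.9 and 84.5 CPM in Scrambled, 133, 138 and 132 CPM with IAMP-siR-1 and 144, 143 and 147 CPM with IAMP-siR-2, and rose by 0.58 ± 0.038 and 0.67 ± 0.038 on the log2 scale. Cebpd had 188, 200.4 and 176 CPM in Scrambled, 170.2, 172 and 169 CPM with IAMP-siR-1 and 209, 208 and 218 CPM with IAMP-siR-2. The IAMP-siR-1 libraries lay below the Scrambled range and the IAMP-siR-2 libraries above it, and both small differences passed the test in opposite directions (-0.15 ± 0.038 and 0.15 ± 0.038, adjusted p = 0.00322 and 0.0034). Scaled to library totals alone, the IAMP-siR-2 value was 0.07 (adjusted p = 0.123). Nfkbiz had 332, 334 and 321 CPM in Scrambled, 323, 313 and 323 CPM with IAMP-siR-1 and 414, 399.5 and 390.1 CPM with IAMP-siR-2. Only the IAMP-siR-2 rise passed the test (0.27 ± 0.029, adjusted p = 6.03e-07), the IAMP-siR-1 value being -0.05 ± 0.029.

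Zc3h12a had 152, 158 and 146 CPM in Scrambled, 215, 224 and 215 CPM with IAMP-siR-1 and 230.5, 238 and 247 CPM with IAMP-siR-2. The groups did not overlap, and the gene rose by 0.51 ± 0.034 and 0.63 ± 0.034 on the log2 scale (adjusted p = 2.15e-09 and 6.59e-11). Tnfaip3 had 31.3, 27.2 and 28.6 CPM in Scrambled, 51.98, 50.2 and 50.6 CPM with IAMP-siR-1 and 65.7, 69.7 and 62.5 CPM with IAMP-siR-2, the largest rises of any member here at 0.80 ± 0.051 and 1.16 ± 0.051. Here both siRNAs raised A20 mRNA, unlike in untreated CFs. Arid5a had 28.1, 25.8 and 24.2 CPM in Scrambled, 15.7, 16.6 and 16.2 CPM with IAMP-siR-1 and 18.4, 16.2 and 17.4 CPM with IAMP-siR-2, log2 fold changes of -0.70 ± 0.068 and -0.60 ± 0.068 (adjusted p = 2.3e-07 and 7.7e-07). Its siRNA libraries stood near the untreated Scrambled range of 13.8 to 15.2 CPM. In the direct comparison, 6 members were higher and 1 lower with IAMP-siR-2 than with IAMP-siR-1, against 46.2% of genes, and the macrophage markers summed to 54.4 to 54.8 CPM in Scrambled, 62.9 to 68.2 CPM with IAMP-siR-1 and 74.5 to 83.2 CPM with IAMP-siR-2.

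Whether a siRNA effect differed between IL-17 and untreated CFs was tested as the difference of the 2 log2 fold changes. Of the 10 members 6 passed with IAMP-siR-1, 1 higher and 5 lower, against 1.73% of 22359 genes, and 5 passed with IAMP-siR-2, 1 higher and 4 lower, against 1.64%. The receptor and adaptor genes were not among them with either siRNA, their differences running from -0.19 (Il17ra, IAMP-siR-2, 95% interval -0.33 to -0.05) to 0.10 (Traf3ip2, IAMP-siR-1, -0.06 to 0.26). The 2 siRNAs share the Scrambled libraries of both tables.

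For all 3 transcription factors the siRNA effect was lower under IL-17. The difference was -0.98 ± 0.062 and -1.27 ± 0.062 for Cebpd (adjusted p = 3.35e-12 and 2.38e-15), -0.61 ± 0.077 and -0.94 ± 0.077 for Cebpb (8.14e-06 and 1.99e-09), and -0.46 ± 0.057 and -0.31 ± 0.057 for Nfkbiz (2.52e-06 and 0.00102). Put as the ratio of mean CPM with IL-17 to without, Cebpd stood at 4.16 in Scrambled, 2.105 with IAMP-siR-1 and 1.72 with IAMP-siR-2. In the same order the ratio was 2.34, 1.54 and 1.22 for Cebpb and 6.001, 4.35 and 4.85 for Nfkbiz.

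Of the 2 brake genes, Tnfaip3 had positive differences of 1.03 ± 0.079 and 0.54 ± 0.078 (adjusted p = 2.38e-10 and 3.05e-05). Its level with IL-17 was 1.44 times the untreated level in Scrambled, 2.95 times with IAMP-siR-1 and 2.09 times with IAMP-siR-2. Arid5a, whose protein stabilises mRNAs, gave 1.81, 1.196 and 0.991 times, with differences of -0.60 ± 0.1 and -0.87 ± 0.1 (adjusted p = 0.000578 and 9.04e-07). The other brake gene, Zc3h12a, gave 14.5, 12.3 and 13.2 times. Its difference of -0.25 ± 0.064 with IAMP-siR-1 passed the test narrowly (adjusted p = 0.0369) and did not with IAMP-siR-2 (-0.14 ± 0.064). The former call ended without IL-17 Scrambled replicate 1 or 2 (adjusted p = 0.0658 and 0.091), IL-17 IAMP-siR-1 replicate 1 or 3 (0.0732 and 0.0937), untreated Scrambled replicate 2 or 3 (0.081 and 0.155) or untreated IAMP-siR-1 replicate 1 (0.183). It also ended with the compared groups alone (0.11) and with estimated counts divided by 6 (0.0582).

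**Figure D4:**
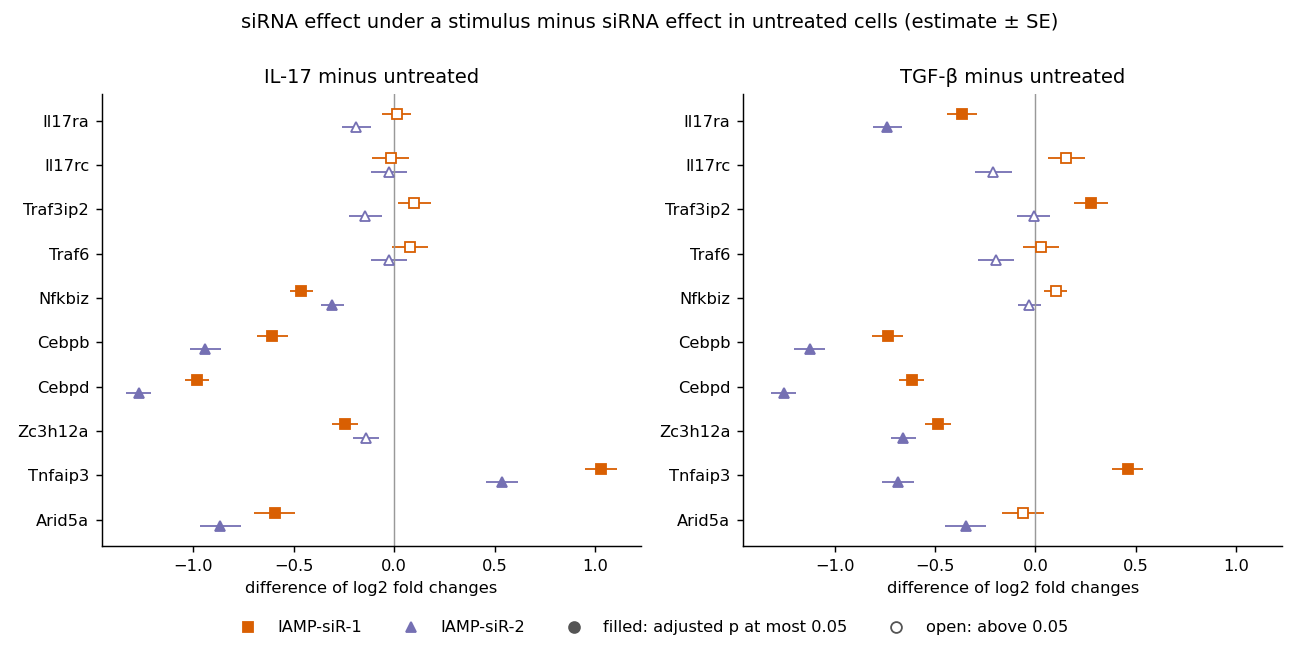
Difference between the siRNA effect under IL-17 (left) or TGF-β (right) and the siRNA effect in untreated CFs, in log2 units, for IAMP-siR-1 (squares) and IAMP-siR-2 (triangles), with bars of 1 SE and filled symbols for an adjusted p of at most 0.05. Cebpb and Cebpd lie left of 0 in both panels, between -1.27 and -0.61, and Tnfaip3 lies right of 0 under IL-17 at 1.03 and 0.54.

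TGF-β, a cytokine known for fibroblast activation, was the other stimulus. Against untreated Scrambled CFs 9 members changed, 7 higher and 2 lower, where 55.5% of 22359 genes were called, and 4 rose past a log2 fold change of 1, where 20.8% of genes passed it. These were Zc3h12a (3.71 ± 0.049), Tnfaip3 (1.77 ± 0.056), Cebpd (1.72 ± 0.045) and Cebpb (1.57 ± 0.056). Zc3h12a had 138, 136 and 138 CPM in the TGF-β Scrambled libraries and Tnfaip3 65.4, 69.2 and 71.4 CPM, above every IL-17 Scrambled library in the case of Tnfaip3. The 2 receptor genes moved apart, Il17rc to 44.3, 42.3 and 45.5 CPM (0.84 ± 0.064) and Il17ra to 34.2, 36.3 and 38.7 CPM (-0.60 ± 0.052). Nfkbiz rose (0.56 ± 0.041), Traf3ip2 rose (0.28 ± 0.059), Traf6 fell (-0.29 ± 0.064) and Arid5a did not pass the test (-0.05 ± 0.073). The TGF-β table also stood apart in its markers, with the 6 macrophage markers at 125 to 164 CPM against 54.4 to 83.2 CPM in the other CFs and the 5 endothelial markers at 82.4 to 92.2 CPM against 38.5 to 52.6 CPM. The 5 cardiomyocyte markers went the other way, at 3.25 to 5.88 CPM against 22.8 to 97.9 CPM, so stimulus, table and cell composition cannot be told apart here.

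Within the TGF-β table, IAMP-siR-1 changed 9 members, 8 higher and 1 lower, against 23.1% of 19891 genes, and IAMP-siR-2 changed 7, 6 higher and 1 lower, against 29.9%. No member passed 1.5-fold with either siRNA, where 4.36% and 7.51% of genes did. The median member moved by 0.25 and 0.16, the median gene by 0.0003 and 0.013, and 7.17% of genes were called higher with both siRNAs, as were 6 members. The macrophage markers summed to 125 to 140.1 CPM with IAMP-siR-1 and 139.6 to 147 CPM with IAMP-siR-2 against 156 to 164 CPM in Scrambled.

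Nfkbiz moved most, from 75.8, 89.1 and 77.8 CPM in Scrambled to 118, 112 and 119 CPM and 119, 117 and 122 CPM, log2 fold changes of 0.52 ± 0.05 and 0.56 ± 0.05. Both siRNA groups lay above the Scrambled range. Without Scrambled replicate 2, the highest of its group, Nfkbiz passed 1.5-fold with both siRNAs (log2 fold changes of 0.60 and 0.64). Cebpb rose by 0.46 ± 0.053 and 0.51 ± 0.053, from 109.6 to 117 CPM to 152 to 159.8 and 145 to 173 CPM, and Cebpd by 0.22 ± 0.037 and 0.19 ± 0.037. Cebpb passed 1.5-fold with IAMP-siR-2 when its replicate 2, the lowest of the 3, was left out (0.59). Il17ra rose by 0.25 ± 0.063 and 0.31 ± 0.063, from 34.2, 36.3 and 38.7 CPM to 43.9, 43.5 and 42.5 CPM and 49.6, 41.4 and 43.99 CPM, and Traf6 by 0.32 ± 0.069 and 0.31 ± 0.069. Zc3h12a rose by 0.28 ± 0.031 and 0.13 ± 0.031. Each of these passed the test with both siRNAs, though Zc3h12a with IAMP-siR-2 did not when scaled to library totals alone (0.07, adjusted p = 0.0901).

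Il17rc fell by a small amount with both siRNAs (-0.17 ± 0.055 and -0.20 ± 0.055, adjusted p = 0.0284 and 0.0115). The IAMP-siR-1 call ended when any of 5 libraries was left out, Scrambled replicate 1 or 3 or any of the 3 IAMP-siR-1 libraries (adjusted p = 0.0576 to 0.107), and the IAMP-siR-2 call without Scrambled replicate 3 (0.0526) or IAMP-siR-2 replicate 2 (0.0631). Traf3ip2 rose with IAMP-siR-1 (0.21 ± 0.05) and had -0.0013 ± 0.05 with IAMP-siR-2. Tnfaip3 likewise rose with IAMP-siR-1 (0.24 ± 0.048), at 79.5, 83.6 and 80.7 CPM against 65.4, 69.2 and 71.4 CPM, while IAMP-siR-2 at 62.8, 70.7 and 67.2 CPM overlapped Scrambled (-0.04 ± 0.048). Arid5a did not pass the test, with intervals of -0.31 to 0.0031 and -0.22 to 0.09. IAMP-siR-2 gave lower levels than IAMP-siR-1 for 3 members, Tnfaip3, Traf3ip2 and Zc3h12a, and higher for none, against 24.0% of genes.

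The siRNA effects under TGF-β differed from those in untreated CFs for 6 members with each siRNA, against 19.5% and 29.5% of genes. With IAMP-siR-1 2 differences were positive, Tnfaip3 (0.46 ± 0.078) and Traf3ip2 (0.28 ± 0.083), and 4 negative, while with IAMP-siR-2 all 6 were negative. Cebpb and Cebpd gave -0.74 and -0.62 with IAMP-siR-1 and -1.12 and -1.25 with IAMP-siR-2. Il17ra passed the test with both (-0.37 ± 0.073 and -0.74 ± 0.073), as did Zc3h12a (-0.48 ± 0.064 and -0.66 ± 0.064). Tnfaip3 had the opposite sign with IAMP-siR-2, at -0.69, and Arid5a passed with IAMP-siR-2 (-0.35 ± 0.1). The knockdown of IAMP was itself weaker in this table, by 0.73 ± 0.15 and 1.02 ± 0.16 on the log2 scale (adjusted p = 0.000541 and 3.84e-06), and its part was not tested.

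In whole hearts no member passed the test between the genotypes. None of 10 members was called by edgeR or DESeq2 between KO and Het. In edgeR 0% of 16675 genes were called, with or without a fold threshold. There no member had an unadjusted p under 0.05, as 601 of all genes did. Il17ra had 3.06, 3.53, 3.73 and 4.45 CPM in the Het libraries and 2.999, 4.39, 2.88 and 3.58 CPM in the KO libraries, and Il17rc had 6.41, 6.53, 6.32 and 7.49 CPM and 6.61, 6.38, 6.21 and 7.12 CPM in that order. The genotypes overlapped for both. Cebpb had 70.9, 105, 91.2 and 93.97 CPM with the Het and 86.1, 96.7, 83.6 and 82.5 CPM with the KO genotype and was the highest member per kilobase, followed by Cebpd, whose 8 libraries ran from 24.1 to 68.2 CPM. The log2 fold changes of the 10 members ran from -0.12 (Arid5a, 95% interval -0.70 to 0.45) to 0.20 (Cebpd, -0.44 to 0.83). For Il17ra the interval ran from -0.41 to 0.22 and for Traf6 from -0.12 to 0.26. These intervals hold for RNA of the whole heart, and a change confined to its fibroblasts was not tested. The 5 cardiomyocyte markers summed to 27349 to 30430 CPM and the 8 fibroblast markers to 749 to 1106 CPM.

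**Figure D5:**
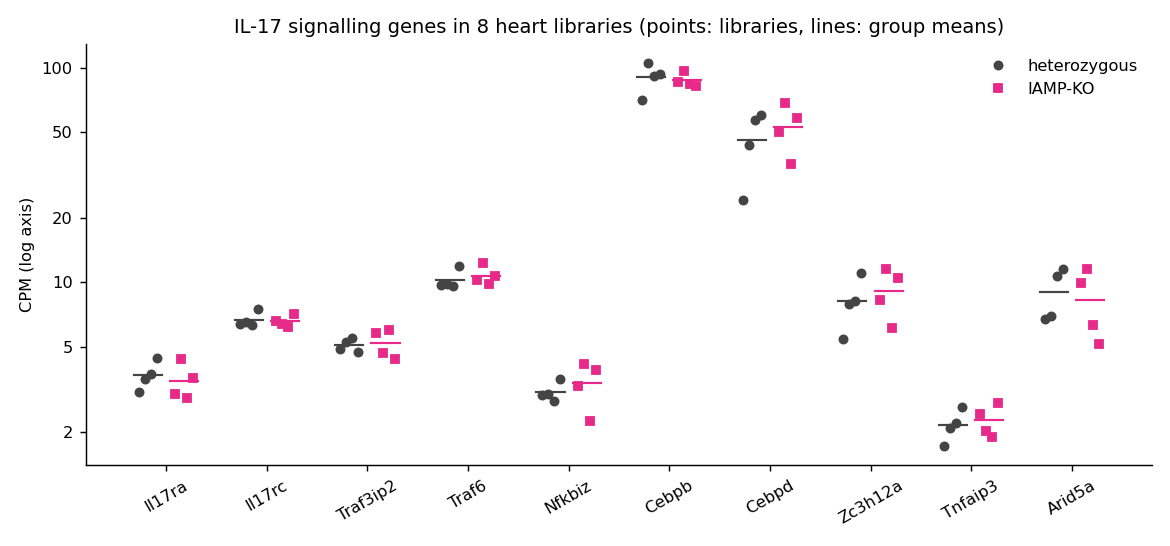
Level of each member in CPM on a log axis in the 4 heterozygous (circles) and 4 IAMP-KO (squares) heart libraries, with lines at group means. The genotypes overlap for every gene, and Cebpb lies highest, between 70.9 and 105 CPM.

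The other genes of the pathway came from 5 lists written from general knowledge with earlier results of these data known. Their counts are therefore a description and not a test. Of 20 IL-17 output genes (chemokines, cytokines, proteases and acute-phase genes), 16 of the 19 tested rose with IL-17 in Scrambled CFs and none fell, with a median of 4.02 on the log2 scale. The share of all genes called in that comparison was 12.2%. In untreated CFs 13 of 17 rose and 1 fell with IAMP-siR-1 (median 1.58), against 39.9% of all genes called, and 10 rose and 2 fell with IAMP-siR-2 (median 1.44), against 49.3%. Under IL-17 18 of 19 rose and 1 fell with IAMP-siR-1 (median 1.60), against 42.3% of all genes, and 13 rose and 4 fell with IAMP-siR-2 (median 0.94), against 50.6%. In TGF-β CFs 16 rose and none fell with IAMP-siR-1, and 14 rose and 1 fell with IAMP-siR-2 (medians 0.845 and 0.93), against 23.1% and 29.9% of all genes. Cxcl5, a neutrophil chemokine, went from 29.2 CPM in untreated Scrambled to 282 and 180.5 CPM. Cxcl3, another, went from 7.14 CPM in IL-17 Scrambled to 38.4 and 66.7 CPM, and the collagenase Mmp13 from 2.36 to 11.7 and 13.9 CPM. The monocyte chemokine Ccl7 went from 23.6 to 117 and 115 CPM in untreated CFs and from 593 to 1215 and 1444 CPM in TGF-β CFs. Saa3 went from 0.49 to 2.97 and 2.59 CPM in IL-17 CFs.

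The proximal signalling list moved in both directions. In untreated CFs 7 of 15 rose and 4 fell with IAMP-siR-1, and 6 rose and 4 fell with IAMP-siR-2, with medians of 0.11 and 0.08, where 39.9% and 49.3% of all genes were called. Ikbke, an inducible IκB kinase relative, rose with both siRNAs in every table, most with IAMP-siR-2 in untreated CFs (16.5 to 31.9 CPM, log2 fold change 0.93). Tab2, a subunit of the TAK1 kinase complex, rose in untreated (0.31 and 0.34) and IL-17 CFs (0.28 and 0.45). Ikbkb rose in untreated CFs (0.25 and 0.55), Traf5 fell in IL-17 CFs (-0.33 and -0.37) and Tbk1 rose in TGF-β CFs (0.28 and 0.20). Of 13 other transcription factors, 10 rose with IL-17 in Scrambled CFs, against 12.2% of all genes called. In untreated CFs 4 rose and 6 fell with IAMP-siR-1 and 9 rose and 1 fell with IAMP-siR-2, against the same 39.9% and 49.3%. The AP-1 subunits moved apart, Fosl1 and Fosl2 rising in untreated CFs with both siRNAs (0.32 and 0.68, and 0.35 and 0.75) and Jun falling with both in every table, with a log2 fold change of -0.97 for IAMP-siR-2 under IL-17. Jund fell in IL-17 CFs (-0.31 and -0.30) and Rel rose in TGF-β CFs (0.32 and 0.29).

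Of 23 other restraining genes, 7 rose and 6 fell with IAMP-siR-1 and 10 rose and 7 fell with IAMP-siR-2 in untreated CFs. The share of all genes called was 39.9% and 49.3%, and the list medians were 0.0002 and 0.11 on the log2 scale. Dusp1, the phosphatase that switches off mitogen-activated kinases, fell with both siRNAs in every table, from 68.9 CPM to 34.1 and 47.7 CPM in untreated and from 53.9 to 22.99 and 30.4 CPM in IL-17 CFs. Socs1, a suppressor of cytokine receptors, fell in untreated and IL-17 CFs, with log2 fold changes of -0.86 and -0.85 in the latter. Usp18 fell in IL-17 CFs, from 38.3 ± 12.6 CPM (SD, n = 3) to 11.6 and 12.9 CPM. Zc3h12b, a relative of Zc3h12a, fell in untreated CFs (-0.48 and -1.14), where Zc3h12a rose. Zfp36l1 (0.56 and 0.27) and Tax1bp1 (0.16 and 0.24), of the same list, rose with both siRNAs in TGF-β CFs. Among 9 ligands and other receptors, Il17rd, a receptor relative known as a restraint on the pathway, fell with both siRNAs in untreated CFs (20.6 to 12.01 and 11.7 CPM) and in IL-17 CFs (14.1 to 9.91 and 8.31 CPM). The ligand gene Il17d fell with both in untreated CFs, from 2.68 to 1.73 and 1.17 CPM (log2 fold changes of -0.64 and -1.21).

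Patterns over the 27 CF libraries were compared by Pearson's r of log2(CPM + 0.5) over 13329 genes, as a description, since these libraries share 9 groups and 3 tables. The gene nearest to each member was Naa15 for Il17ra (r = 0.984), Zfp580 for Il17rc (0.987), Icosl for Traf3ip2 (0.928), Prkx for Traf6 (0.968), Lhfpl2 for Nfkbiz (0.976), Birc3 for Cebpb (0.968), Bcl3 for Cebpd (0.972), Cxcl1 for Zc3h12a (0.981), Rhog for Tnfaip3 (0.967) and Ptpn13 for Arid5a (0.846). Among the members, Il17ra and Traf6 went together over all libraries (r = 0.935) and after each table was centred on its own mean (0.916). Cebpb and Zc3h12a had r = 0.726 over all libraries and 0.923 within tables. Il17ra and Il17rc, the subunits of 1 receptor, had r = -0.782 over all libraries and -0.194 within tables.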

How the data were processed

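RNA-Seq was analysed from 27 CF libraries and 8 heart libraries. Per the labels and the study's methods, the authors trimmed reads with cutadapt, aligned them to GRCm38 with HISAT2, quantified genes with StringTie and deposited per-gene tables. The CF tables hold deposited whole numbers read here as estimated counts, in which the most frequent value of genes seen in 1 library was 6, and the heart table the authors deposited holds counts whose most frequent such value was 1. The strand setting and annotation release are not given in the sources used here. Codes in the column names of the CF tables were tied to IAMP-siR-1 and IAMP-siR-2 by the TGF-β descriptions and carried over to the other tables, and heart columns were known by genotype only.

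From these, edgeR 4.0.16 in R 4.3.3 (filterByExpr, TMM, robust quasi-likelihood test, Benjamini-Hochberg adjustment over all genes tested) was fitted to each CF table, to all 27 CF libraries for stimuli and for differences of siRNA effects, and to the hearts. Changes with an adjusted p no higher than 0.05 were called. The fold thresholds were a log2 fold change of 1 (untreated, stimulus, hearts) or 1.5-fold (IL-17, TGF-β), and the study gives them for untreated and IL-17 CFs only. Intervals are the estimate ± 1.96 SE. CPM was scaled by TMM over the 27 CF libraries together and over the hearts separately. With 6 estimated counts taken as 1 read pair in the CFs, no 2 replicates agreed within counting noise. The code was tested on simulated data. The members and lists were chosen with earlier results of these data known. From each list and table, up to 3 genes with the largest mean change were named among those called with both siRNAs in 1 direction at 1 CPM or more. Their values are not printed for every table. Of 55487 gene identifiers, 55141 were in GENCODE vM21. DESeq2 1.42.0, RLE scaling, library totals, 2 other filters, the compared groups alone, a replicate block, estimated counts divided by 6 and leaving out each library were the alternatives, and that with library totals was chosen after seeing the data.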

Additional observations from a re-analysis of the deposited data

Results flagged for a closer look

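In the Het hearts, 1 library stood apart for Traf6, at 11.9 CPM against 9.59, 9.67 and 9.75 CPM in the other libraries of the group. It was the only 1 of 20 groups tested among the members (10 genes in each of the heart genotypes) to do so, and chance gives about 1 in 20 such groups.

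Several siRNA effects differed between stimulated and untreated CFs by a test of the difference itself (edgeR's quasi-likelihood test, log2 units, stimulated minus untreated). Under IL-17 with IAMP-siR-1 the differences were -0.46 for Nfkbiz, -0.61 for Cebpb, -0.98 for Cebpd, -0.25 for Zc3h12a, 1.03 for Tnfaip3 and -0.60 for Arid5a. With IAMP-siR-2 they were -0.31 for Nfkbiz, -0.94 for Cebpb, -1.27 for Cebpd, 0.54 for Tnfaip3 and -0.87 for Arid5a. Under TGF-β with IAMP-siR-1 they were -0.37 for Il17ra, 0.28 for Traf3ip2, -0.74 for Cebpb, -0.62 for Cebpd, -0.48 for Zc3h12a and 0.46 for Tnfaip3. With IAMP-siR-2 they were -0.74 for Il17ra, -1.12 for Cebpb, -1.25 for Cebpd, -0.66 for Zc3h12a, -0.69 for Tnfaip3 and -0.35 for Arid5a. Each stimulus was deposited in its own table, so stimulus and table cannot be told apart in these differences.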

How the results depend on the processing

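No called change turned its direction under any alternative. Counts of called members moved by at most 2. The counts past the fold moved with the threshold: at 1.5-fold instead of a log2 fold change of 1, 4 members passed with IAMP-siR-1 and 5 with IAMP-siR-2 in untreated CFs, and at a log2 fold change of 1 instead of 1.5-fold, 0 and 1 passed in IL-17 CFs. In TGF-β CFs the count past 1.5-fold ran from 0 to 1 with each siRNA when 1 library was left out, reaching 1 without Scrambled replicate 2 for both and without IAMP-siR-2 replicate 2 for the latter.

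Of the 160 member values, DESeq2 ended 1 call and added 1, RLE size factors added 1, no filter ended 1 and added 1, and a minimum of 10 counts in every library added 1. Library totals alone, which move the median gene by up to -0.114 (log2) between IAMP-siR-1 and Scrambled, ended 3 and added 5. Among these, Traf3ip2 (-0.17, adjusted p = 0.0494) and Arid5a (-0.20, 0.0306) with IAMP-siR-1 in untreated CFs and Nfkbiz with IAMP-siR-1 in IL-17 CFs (-0.16, 0.00025) were added. Of 150 CF values, fitting the compared groups alone ended 2 and added 1, and dividing estimated counts by 6 ended 1 and added 1. The difference between the siRNAs for Cebpb in IL-17 CFs, not called in the report, was called under 7 of these alternatives.

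Leaving out 1 library ended 23 and added 9 calls among 2510 values. Besides those named in the report, Traf3ip2 between the siRNAs in IL-17 CFs was lost without IAMP-siR-1 replicate 2 (adjusted p = 0.0853) or IAMP-siR-2 replicate 2 (0.0874), and Zc3h12a there without IAMP-siR-2 replicate 3 (0.0684). The TGF-β difference of Traf3ip2 with IAMP-siR-1 was lost without untreated IAMP-siR-1 replicate 1 (0.0575), and that of Arid5a with IAMP-siR-2 without TGF-β Scrambled replicate 1 (0.081) or untreated IAMP-siR-2 replicate 3 (0.0806). Nfkbiz was added to the TGF-β differences with IAMP-siR-1 without TGF-β Scrambled replicate 2 (0.00454), and with IAMP-siR-2 Il17rc was added without TGF-β IAMP-siR-2 replicate 1 (0.0328) or untreated Scrambled replicate 3 (0.034) and Traf6 without TGF-β IAMP-siR-2 replicate 3 (0.0279). Between the siRNAs, Traf6 was added in IL-17 CFs without IAMP-siR-1 replicate 1 (0.0298), Cebpb there without Scrambled replicate 2 (0.0207), Scrambled replicate 3 (0.041) or IAMP-siR-1 replicate 2 (0.0426), and Cebpb in TGF-β CFs without IAMP-siR-2 replicate 2 (0.045).

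With the replicate number as a replicate block, all 150 CF values kept their call, and the counts of called members stayed at 8 with each siRNA in untreated CFs. Same-numbered libraries correlated between -0.167 and 0.0563 in their deviations from group means, and other pairs between -0.132 and 0.211. With 3 libraries in a group, this check cannot tell whether same-numbered libraries were paired. Heart columns carry no numbers, so no block was fitted there, and the comparison alone is the main fit in hearts. In hearts the SE of a member ran from 0.0867 to 0.323, which limits what could be called.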
